A study of Mus musculus with 6 samples.

Results

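MHC class I antigen processing was examined in mouse liver through 10 genes chosen by name: the heavy chains H2-K1 and H2-D1, the light chain B2m, the peptide transporter subunits Tap1 and Tap2, the loading factor Tapbp, the immunoproteasome subunits Psmb8, Psmb9 and Psmb10, and the transactivator Nlrc5. They are 10 of the 55487 genes in the count table. RNA-seq was done on whole livers of 6 wild-type mice, 3 mice/group, fed normal chow and collected at 17 weeks of age. Each mouse had been injected subcutaneously with GalNAc-siNC, a control siRNA, or with GalNAc-siRnf10, an siRNA against Rnf10, which encodes an E3 ubiquitin ligase. GalNAc is a sugar ligand that is taken up by the asialoglycoprotein receptor of hepatocytes. The dose and injection times of this experiment are not given in the labels, the study states that only male mice were used, and all 6 libraries carry the same batch label. The study used these libraries to look for off-target effects of the siRNA, and the question here is how the class I genes behaved in that comparison.

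MHC class I molecules show fragments of a cell's own proteins at its surface to CD8 T cells. Proteins are cut by the proteasome, in which the immunoproteasome subunits can replace the constitutive catalytic ones, and the peptides are pumped into the endoplasmic reticulum by the TAP1 and TAP2 transporter. There tapasin, the product of Tapbp, holds an empty heavy chain and beta-2 microglobulin at the transporter until a peptide is bound. Hepatocytes carry little class I at rest, interferon gamma raises most of these genes, and NLRC5 is the dedicated activator of their promoters.

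The libraries held between 26854377 and 33058645 counted reads each. Rnf10, the target, had 3869, 4536 and 4040 normalized read counts (counts scaled to a common library size) in the GalNAc-siNC mice and 1738, 1820 and 1793 in the GalNAc-siRnf10 mice. Its level was reduced by 57.0%, a log2 fold change of -1.22 (SE 0.0715, adjusted p = 3.29e-09, edgeR), so the groups matched their labels. GalNAc-siNC mouse 1 stood apart from its group before any class I result: its counts differed from those of the other GalNAc-siNC mice by 29.8 and 30.6 chi-square units per gene, against 10.4 between the other two and 4.71 to 5.40 among the GalNAc-siRnf10 mice. Calls and ratios that rest on it are therefore given with and without it.

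Of the 10 class I genes, 7 lie in the MHC region of chromosome 17 in the GRCm38 build. In order along the chromosome, Tapbp runs from chr17:33915899-33929292 on the plus strand and H2-K1 from chr17:33996017-34000347 on the minus strand. Psmb9 follows at chr17:34181987-34187764 on the minus strand and Tap1 at chr17:34187553-34197225 on the plus strand, so that their exons overlap head to head by 212 bases. Psmb8 begins 495 bases after the end of Tap1, at chr17:34197721-34201454, and Tap2 lies at chr17:34203527-34216321, both on the plus strand. H2-D1 is placed 1046408 bases beyond Tap2, at chr17:35262730-35267499 on the plus strand. Outside the region are B2m at chr2:122147686-122153083 on the plus strand, Nlrc5 at chr8:94434356-94527272 on the plus strand and Psmb10 at chr8:105935735-105938444 on the minus strand. Reads were counted over the exons of each gene. Because it is not stated whether counting used the strand, reads inside the shared bases of Psmb9 and Tap1 cannot be told apart, and 149 exon bases of Tapbp are also exon of its same-strand neighbour Zbtb22.

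Class I promoters are textbook examples of a shared regulatory block, so the 250 bases upstream of each RefSeq transcription start (build GRCm38.p6) were searched on both strands for 4 short motifs. Entries were found for 8 of the 10 genes, with none for Tap2 and Nlrc5. The windows of B2m and H2-K1, the light chain and a heavy chain whose results differ below, are shown whole, 5′ to 3′ in the direction of the gene, with matches in capitals. The B2m window is chr2:122147437-122147686 (plus strand), and the H2-K1 window is chr17:34000348-34000597 (minus strand).
B2m: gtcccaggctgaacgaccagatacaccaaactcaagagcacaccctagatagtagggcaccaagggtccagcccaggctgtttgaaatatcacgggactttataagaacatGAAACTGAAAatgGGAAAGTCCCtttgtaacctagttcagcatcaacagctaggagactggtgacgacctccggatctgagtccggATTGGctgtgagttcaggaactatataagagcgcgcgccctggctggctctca
H2-K1: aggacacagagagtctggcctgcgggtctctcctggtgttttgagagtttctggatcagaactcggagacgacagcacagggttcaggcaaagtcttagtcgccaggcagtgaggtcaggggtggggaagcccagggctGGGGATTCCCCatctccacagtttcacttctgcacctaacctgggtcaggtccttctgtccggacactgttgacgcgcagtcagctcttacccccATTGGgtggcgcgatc

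In these windows the kappa B motif, the binding pattern of NF-kappaB, was matched in H2-K1, H2-D1 and B2m, and it occurs in 3.90% of all 32851 promoter windows of the table. The interferon-response pattern, GAAA followed by any 2 bases and GAAA again, which is held by 2.98% of all windows, was matched among the class I genes in B2m alone, just 5′ of its kappa B match. The gamma-activated pattern TTCNNNGAA (7.02% of all windows) was matched in Psmb8 alone, and the CCAAT box (33.9% of all windows, ATTGG on the other strand) in 6 of the 8, namely H2-K1, H2-D1, B2m, Tap1, Tapbp and Psmb9. A few matches are shown with their surroundings. Both heavy chain windows hold a pair of kappa B matches shifted by 1 base, of which the nearer to the start is in capitals here. These stretches carry the same letters in capitals, at chr17:34000438-34000467 for H2-K1 and chr17:35262914-35262943 for H2-D1.
H2-K1 kappa B: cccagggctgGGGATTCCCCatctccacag
H2-D1 kappa B: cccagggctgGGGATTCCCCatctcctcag
Psmb8 gamma-activated: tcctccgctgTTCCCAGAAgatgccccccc
Tapbp CCAAT: attaaaatatttATTGGtcacttcacttgg
Tap1 CCAAT: gggctcggctttCCAATcagcggctgcgcg
The Tap1 match is also the Psmb9 match, since the pair is transcribed in opposite directions from the same stretch. The GRCm38 positions are chr17:34198088-34198117 for Psmb8, chr17:33919301-33919330 for the nearer of a pair of Tapbp matches, and chr17:34187322-34187351 for Tap1. The windows of H2-D1, Tap1, Tapbp, Psmb8 and Psmb9 lie wholly inside counted exons, in the case of Tapbp those of Tapbp and Zbtb22. A match is a description of the letters only. A window without a match is not shown to lack the element, since only 1 fixed spelling of each motif was searched.

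All 10 class I genes passed the filter on low counts. Per kilobase of counted exon, B2m was the most abundant, with 51801 ± 4307 normalized read counts (SD, n = 3) in GalNAc-siNC livers, above 99.7% of the 14046 genes tested. The heavy chains followed, H2-K1 with 12872 ± 1840 and H2-D1 with 7452 ± 992 per kilobase. Tapbp had 785 ± 57.1 and Psmb10, the subunit that replaces Psmb7, had 619 ± 124 on the same scale. The structural chains of the class I molecule were thus well above the genes that supply its peptides. Tap1 followed at 169 ± 13.0 per kilobase and Psmb9 at 128 ± 17.7. Psmb8 had 118 ± 31.7 and Tap2 had 117 ± 12.5 per kilobase. Nlrc5, the transactivator, was lowest with 77.6 ± 4.49 per kilobase, above 51.0% of genes tested. Neighbours in this order did not overlap among GalNAc-siNC mice except Psmb9 with Psmb8 and Psmb8 with Tap2. With GalNAc-siRnf10 the order was the same, and there the ranges of Tapbp and Psmb10, of Tap1 and Psmb9, and of Psmb9 and Psmb8 overlapped. The exon length used is that of all annotated exons together, which for H2-K1 (2938 bases) is longer than its longest coding transcript (1619 bases), so levels between genes depend on the annotation.

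**Figure D1:**
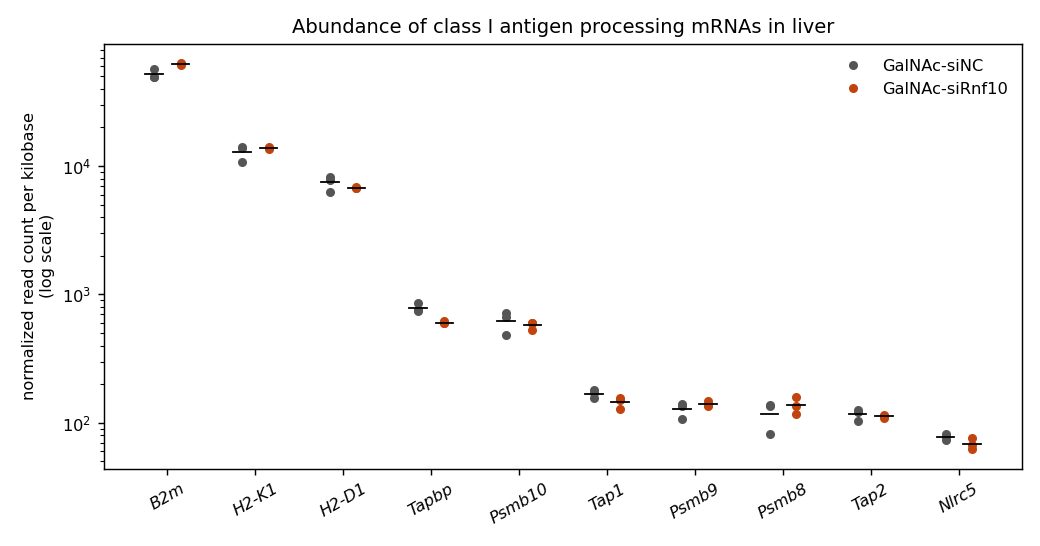
Normalized read count per kilobase of counted exon (log scale) for the 10 class I genes, in order of their GalNAc-siNC mean. Each point is a mouse and each line a group mean (n = 3): B2m and the heavy chains lie at 6334 or above in every mouse, and Nlrc5 at 82.2 or below.

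B2m rose and Tapbp fell with GalNAc-siRnf10, and none of the other 8 class I genes passed the test in either direction. The 2 called genes stand against a background in which 14.0% of all 14046 tested genes were called in the edgeR quasi-likelihood fit (adjusted p under 0.05), 6.71% higher and 7.28% lower. Groups did not overlap for the same 2 of 10 genes, against 32.8% of all tested genes. The median log2 fold change of the class I genes was -0.085 (4 above 0 and 6 below), beside 0.0022 over all tested genes. The share called is thus near the background, and the genes are described singly below.

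The light chain B2m, which every class I heavy chain needs to fold and to reach the surface, had 42645, 42185 and 48818 normalized read counts in the GalNAc-siNC mice and 53668, 52258 and 54347 in the GalNAc-siRnf10 mice. All 3 GalNAc-siRnf10 mice were above every control. The log2 fold change was 0.26 (SE 0.058, 95% interval 0.14 to 0.39, adjusted p = 0.00543, edgeR), a 1.20-fold level, and the exact two-sided permutation test gave p = 0.1, the smallest that 3 mice against 3 allow. The call was lost without GalNAc-siRnf10 mouse 1 (log2 fold change 0.26, adjusted p = 0.0501) and without GalNAc-siRnf10 mouse 3 (0.25, adjusted p = 0.0587), with edgeR in both fits.

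The rise of B2m also moved with gene length and base composition. Over all tested genes the median log2 fold change was 0.24 for the 915 genes under 1000 exon bases, 0.11 for those of 1000 to 2000 bases and -0.040 for those of at least 4000 bases. It was 0.048 for genes under 45% GC and -0.064 for genes of at least 55% GC. B2m is a short gene of 860 exon bases with 41.2% GC, and when trends of fold change with length and GC were removed its log2 fold change was 0.062 (adjusted p = 0.290, edgeR), so the call was not kept. Whether these trends come from the livers or from the libraries was not tested.

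Tapbp had 2712, 3087 and 2748 normalized read counts in the GalNAc-siNC mice and 2155, 2158 and 2253 in the GalNAc-siRnf10 mice. Every GalNAc-siRnf10 mouse lay below every control, and the GalNAc-siRnf10 values were close together. Its level was 23.2% lower, a log2 fold change of -0.38 (SE 0.070, 95% interval -0.53 to -0.23, adjusted p = 0.00117, edgeR; exact permutation p = 0.1). With the length and GC trends removed it was -0.29 (adjusted p = 0.000268, edgeR), for a gene of 3628 exon bases with 58.4% GC, and its call was kept in 15 of 15 alternative analyses. Tapbp was the only class I gene here to keep a call in all of them.

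**Figure D2:**
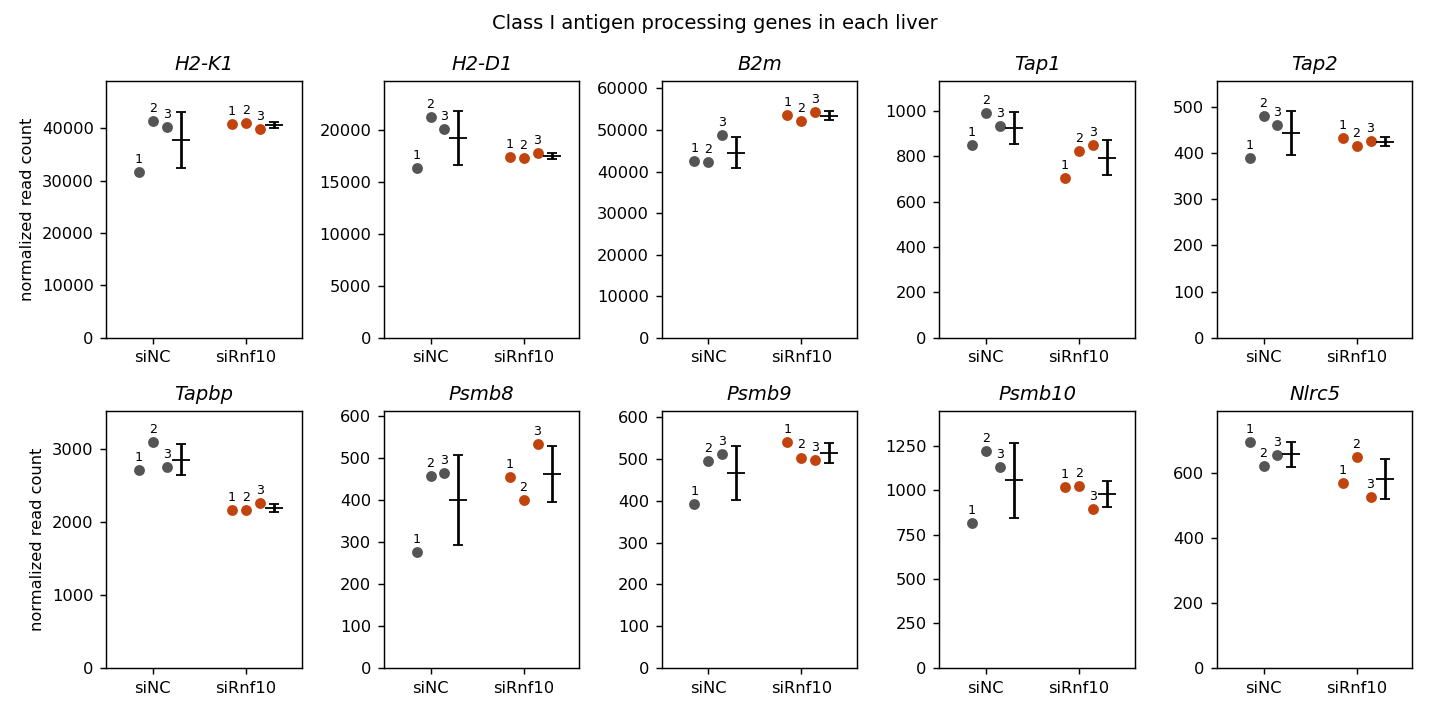
Normalized read count of each class I gene in every liver, with each axis starting at 0; numbered points are mice, and the bar beside them is the group mean ± SD (n = 3). B2m (42185 to 48818 against 52258 to 54347) and Tapbp (2712 to 3087 against 2155 to 2253) are the genes whose groups do not overlap, and GalNAc-siNC mouse 1 is the lowest control for 8 of the 10 genes.

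The classical heavy chains, which hold the peptide and are read by T cell receptors, did not pass the test. H2-K1 had 31611, 41512 and 40329 normalized read counts with GalNAc-siNC and 40920, 41063 and 39925 with GalNAc-siRnf10. Its groups overlapped, since GalNAc-siNC mice 2 and 3 were at the level of the treated mice and mouse 1 was well below. The log2 fold change was 0.10 (95% interval -0.10 to 0.31, adjusted p = 0.530, edgeR). H2-D1 had 16334, 21214 and 20108 with GalNAc-siNC and 17400, 17247 and 17772 with GalNAc-siRnf10. Here the treated mice fell between GalNAc-siNC mouse 1 and the other two controls, and the log2 fold change was -0.14 (95% interval -0.31 to 0.039, adjusted p = 0.312, edgeR).

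Within each liver, the ratio of the heavy chains did not overlap between the groups, as was so for 32.8% of single tested genes. No such share was computed for ratios. The ratio of H2-K1 to H2-D1 per kilobase was 1.70, 1.72 and 1.76 in the GalNAc-siNC mice and 2.06, 2.09 and 1.97 in the GalNAc-siRnf10 mice. All 3 treated mice were above every control, and GalNAc-siNC mouse 1 was with its group on this measure. The difference of the log2 ratio was 0.24 (SE 0.0297, exact two-sided permutation p = 0.1, the smallest possible, and 0.25 after Benjamini-Hochberg adjustment over the 5 ratios examined). It lay between 0.23 and 0.27 when each mouse was left out in turn. After removal of the length and GC trends, the difference between the fitted log2 fold changes of H2-K1 and H2-D1 was 0.28, against 0.24 before. Heavy chain genes are near copies of one another. In the longest coding transcripts, none of the 150-base windows (a read's length) of H2-K1 and 1.79% of those of H2-D1 occurred in another gene, all of the latter in H2-Q1. Only exact matches were searched, and other counted exon bases were left out. Whether reads were assigned to the right heavy chain was therefore not tested.

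The ratio of both heavy chains together to B2m was 0.345, 0.456 and 0.379 with GalNAc-siNC and 0.331, 0.340 and 0.324 with GalNAc-siRnf10. The treated mice were all below the controls, but GalNAc-siNC mouse 1 was close to them. The log2 ratio was lower by -0.24 on average (SE 0.120, exact permutation p = 0.1, adjusted 0.25 over the 5 ratios). It was -0.33 without GalNAc-siNC mouse 1 and -0.12 without GalNAc-siNC mouse 2. This ratio contains B2m and so moves with the length and GC trends above.

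The peptide transporter did not pass the test. Tap1, which with Tap2 forms the channel and its motor, had 850, 991 and 935 normalized read counts with GalNAc-siNC and 706, 825 and 852 with GalNAc-siRnf10. The groups overlapped only through the lowest control and the highest treated mouse. The log2 fold change was -0.22 (95% interval -0.41 to -0.023, unadjusted p = 0.0310, adjusted p = 0.137, edgeR). Tap2 had 390, 480 and 461 with GalNAc-siNC and 433, 414 and 426 with GalNAc-siRnf10. The treated mice lay within the range of the controls, with a log2 fold change of -0.063 (95% interval -0.29 to 0.16, adjusted p = 0.757, edgeR).

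The immunoproteasome subunits, which trim proteins into peptides suited to class I grooves, spread widely among the control mice. Psmb8 had 275, 457 and 464 normalized read counts with GalNAc-siNC and 453, 399 and 532 with GalNAc-siRnf10. Psmb9 had 393, 495 and 513 against 541, 504 and 497, and Psmb10 had 817, 1220 and 1129 against 1016, 1026 and 895. In all 3 genes GalNAc-siNC mouse 1 was the lowest of the 6 mice, and the groups overlapped. The log2 fold changes were 0.21 for Psmb8 (95% interval -0.27 to 0.69), 0.14 for Psmb9 (-0.093 to 0.38) and -0.11 for Psmb10 (-0.41 to 0.20), with adjusted p of 0.577, 0.457 and 0.676 (edgeR).

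Each immunoproteasome subunit takes the place of a constitutive one, Psmb8 of Psmb5, Psmb9 of Psmb6 and Psmb10 of Psmb7, and their ratio within a liver does not depend on library scaling. Psmb8 to Psmb5, per kilobase, averaged 0.0823 with GalNAc-siNC and 0.0773 with GalNAc-siRnf10, and Psmb9 to Psmb6 averaged 0.106 and 0.0962. Both mRNAs of the immune form were thus far less abundant than the constitutive form. Psmb10 to Psmb7 was higher, at 1.04 and 0.858. The contrast depends on annotated exon lengths, 3381 bases for Psmb8 and 899 for Psmb5 but 1705 for Psmb10 and 3421 for Psmb7. Without division by length, the GalNAc-siNC means were 399 normalized read counts for Psmb8 and 1278 for Psmb5. They were 467 for Psmb9 and 2267 for Psmb6, and 1056 for Psmb10 and 2025 for Psmb7. The log2 ratios differed by -0.10 (SE 0.160), -0.15 (SE 0.0809) and -0.27 (SE 0.144), with overlapping groups and exact permutation p of 0.7, 0.2 and 0.2. Single control mice moved them: Psmb9 to Psmb6 differed by -0.083 without GalNAc-siNC mouse 1, and Psmb10 to Psmb7 by -0.38 without GalNAc-siNC mouse 1 and -0.16 without GalNAc-siNC mouse 2. Psmb8 to Psmb5 ran from -0.22 without GalNAc-siRnf10 mouse 3 to 0.034 without GalNAc-siRnf10 mouse 2. The constitutive genes themselves had log2 fold changes of 0.32 for Psmb5, 0.27 for Psmb6 and 0.18 for Psmb7 (adjusted p = 0.244, 0.283 and 0.128, edgeR). Groups did not overlap in any of the 3, as was so for 32.8% of all tested genes. With the length and GC trends removed, Psmb5 (899 exon bases) was called, with a log2 fold change of 0.26 (adjusted p = 0.0219, edgeR). In that fit Psmb8 was also at 0.26, Psmb9 at 0.19 beside 0.21 for Psmb6, and Psmb10 at -0.11 beside 0.13 for Psmb7. The Psmb8 to Psmb5 and Psmb9 to Psmb6 ratios thus also move with these trends.

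**Figure D3:**
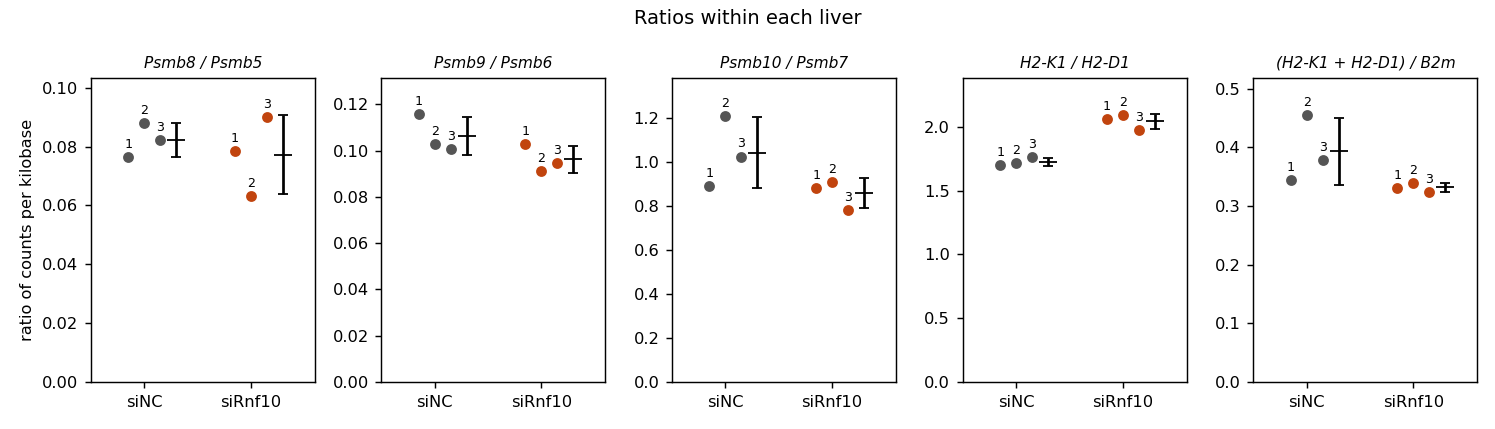
Ratios of counts per kilobase within each liver, with axes from 0; numbered points are mice and bars the group mean ± SD (n = 3). The H2-K1 to H2-D1 ratio runs from 1.70 to 1.76 in GalNAc-siNC mice and from 1.97 to 2.09 in GalNAc-siRnf10 mice, while the 3 immunoproteasome ratios overlap between groups.

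Nlrc5, the transactivator of this gene set, had 698, 622 and 656 normalized read counts with GalNAc-siNC and 570, 650 and 527 with GalNAc-siRnf10. Only GalNAc-siRnf10 mouse 2 reached the controls. The log2 fold change was -0.18 (95% interval -0.39 to 0.031, adjusted p = 0.269, edgeR), and GalNAc-siNC mouse 1 was the highest control rather than the lowest.

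The class I genes were more alike among GalNAc-siRnf10 mice than among controls. The median SD on the log2 scale was 0.179 over the 10 genes with GalNAc-siNC and 0.0513 with GalNAc-siRnf10, and 8 of 10 were wider in the controls. For all tested genes these medians were 0.160 and 0.106, and 66.2% were wider in the controls. The spread was not computed without GalNAc-siNC mouse 1. Its class I genes had a median log2 deviation from the group mean of -0.20, against 0.12 and 0.089 in GalNAc-siNC mice 2 and 3. GalNAc-siNC mouse 1 was the lowest control for 8 of the class I genes, all but B2m and Nlrc5, and for 38.0% of all tested genes. Without that mouse, 5 class I genes were called in edgeR, in a fit that called 2864 genes in all, 19.97% of those tested. They were B2m, higher, and Tapbp, H2-D1, Psmb10 and Tap1, lower. There H2-D1 had a log2 fold change of -0.24 (adjusted p = 2.37e-05), Psmb10 of -0.26 (adjusted p = 0.0123) and Tap1 of -0.28 (adjusted p = 0.0160). H2-K1 (-0.012) and Psmb8 (-0.0014) then lay at 0. No label sets this mouse apart.

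**Figure D4:**
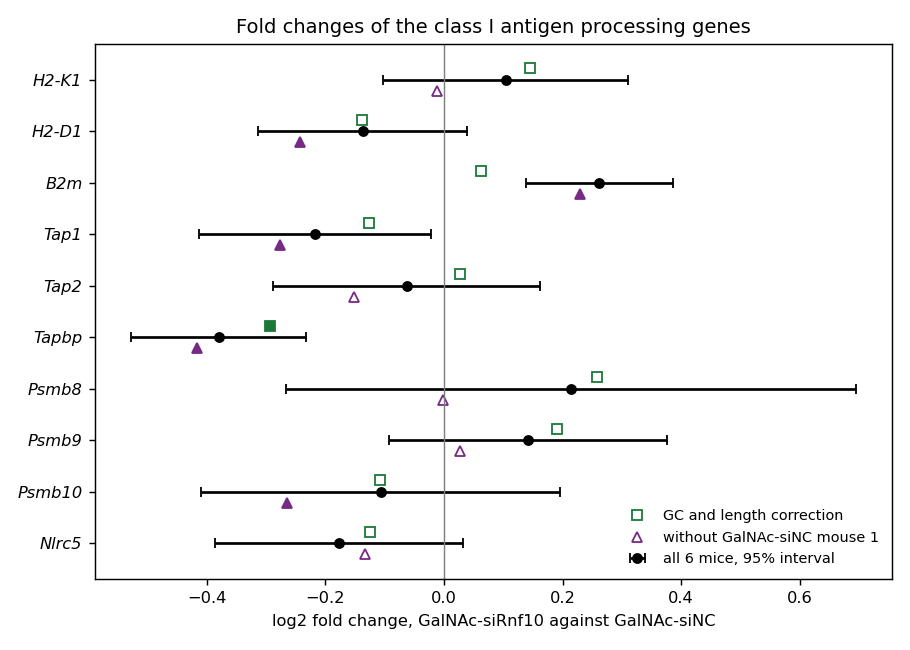
Log2 fold change of each class I gene, GalNAc-siRnf10 against GalNAc-siNC (edgeR). Black points with 95% intervals use all 6 mice, squares have the length and GC trends removed, triangles leave out GalNAc-siNC mouse 1, and filled squares and triangles have an adjusted p under 0.05: Tapbp is filled in both, and B2m moves from 0.26 to 0.062 with the trends removed.

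Around the class I genes, 9 further lists of pathway genes were read in the same fit. Of their 89 genes 85 were tested and 12 were called, 2 higher and 10 lower, a share of 14.1% beside the 14.0% of all genes. Their number was 18 without GalNAc-siNC mouse 1, 18 with the length and GC correction described above, and between 5 and 6 when a GalNAc-siRnf10 mouse was left out. The share of all tested genes called also moved, to 19.97% without GalNAc-siNC mouse 1 and 17.9% with the correction. It was 7.27% to 7.84% when a GalNAc-siRnf10 mouse was left out. The list counts thus rose and fell in the same direction as the calls over all genes.

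Calr, Pdia3 and Uggt1, which work beside tapasin in the endoplasmic reticulum, fell with GalNAc-siRnf10. Of 13 genes of peptide loading and trimming, 3 were called lower and 1 higher, beside 7.28% and 6.71% of all tested genes. The list median was -0.11. Calr, which encodes calreticulin, the chaperone that holds the heavy chain in the loading complex, had 35143, 35554 and 34953 normalized read counts with GalNAc-siNC and 28344, 27300 and 28095 with GalNAc-siRnf10. The log2 fold change was -0.34 (SE 0.0490, adjusted p = 0.000144, edgeR), with a clear gap between groups. Pdia3, the ERp57 oxidoreductase bound to tapasin, had 18872, 17309 and 18024 against 15561, 14002 and 14560 (log2 fold change -0.30, adjusted p = 0.00185, edgeR). Uggt1, the glucosyltransferase that sends unfinished glycoproteins back to calreticulin, had 3084, 2860 and 2833 against 2392, 2349 and 2409 (log2 fold change -0.30, adjusted p = 0.00478, edgeR). These 3 genes also serve the folding of glycoproteins in general, and each kept its call in 15 of 15 alternatives, as Tapbp did. Canx encodes calnexin, the membrane-bound relative of calreticulin, and was also without overlap, as were 32.8% of all tested genes. It had 12930, 11628 and 12284 against 11095, 10721 and 11269 normalized read counts but did not pass the test (log2 fold change -0.16, adjusted p = 0.0813, edgeR). With the length and GC trends removed it was called at -0.18 (adjusted p = 0.00221, edgeR), as it was with limma voom and without GalNAc-siNC mouse 2. Bcap31, a membrane protein that carries class I out of the endoplasmic reticulum, rose by 0.29 (adjusted p = 0.00543, edgeR). It is a short gene of 1219 exon bases, its log2 fold change was 0.15 after the trends were removed (adjusted p = 0.0516, edgeR), and its call was lost in 3 of 15 alternatives.

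Among the other class I heavy chains, 11 of 14 were tested and 1, H2-Q2, was called. It was higher at a low level, with 31.3, 33.0 and 31.6 normalized read counts against 50.9, 65.0 and 54.3 (log2 fold change 0.83, adjusted p = 0.0370, edgeR), and the call was lost in 10 of 15 alternatives. Some 150-base windows of the H2-Q1 transcript also occur in H2-Q2, so reads of the pair may be exchanged. H2-Q10, the liver's secreted class I chain, had 45399, 60879 and 58063 against 55591, 53383 and 52546 normalized read counts. Its log2 fold change was -0.025 (adjusted p = 0.910, edgeR), and the groups overlapped only through GalNAc-siNC mouse 1. Without that mouse, H2-Q10 and H2-Q6 were called lower in edgeR. With all 6 mice H2-Q6 was at -0.18 (adjusted p = 0.292, edgeR). None of the 4 class I-like partners of B2m was called. Mr1, which shows vitamin B metabolites to MAIT cells, had 167, 126 and 156 against 125, 94.7 and 100.1 normalized read counts (log2 fold change -0.49, adjusted p = 0.0685, edgeR), with the highest treated mouse just under the lowest control. It was called lower with the length and GC trends removed (-0.50, adjusted p = 0.0356, edgeR), without the filter on low counts and without GalNAc-siNC mouse 2. Nor was any of the 3 constitutive catalytic subunits, the 7 proteasome activators and assembly factors, or the 9 tested MHC class II genes. In these 4 lists 2, 1, 1 and 2 genes had an unadjusted p under 0.05 in edgeR, and DESeq2 and limma voom called none. Beside Mr1, some other alternatives called Psmb5, Psmb6, Psme1 or Psme2 higher, or Hfe or H2-DMb2 lower.

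Among factors and signals upstream of class I, Irf1, Ifngr2, Stat2 and Irf9 were lower, beside the 7.28% of all tested genes called lower. Of 12 class I promoter factors Irf1 was called, an interferon-induced activator of class I and immunoproteasome genes. It had 615, 655 and 599 normalized read counts with GalNAc-siNC and 437, 336 and 433 with GalNAc-siRnf10. No treated mouse reached a control, and the log2 fold change of -0.63 (SE 0.111, adjusted p = 0.000773, edgeR) was kept in 15 of 15 alternatives. Of 11 interferon receptor and signalling genes 3 were lower, Ifngr2 of the interferon gamma receptor (-0.33, adjusted p = 0.0269, edgeR) and Stat2 and Irf9 of the type I interferon complex (-0.24 and -0.30, adjusted p = 0.0373 and 0.0176). These calls were not kept when a treated mouse was left out: without GalNAc-siRnf10 mouse 1 only Irf9 was called, and without mouse 2 or mouse 3 none of the 11.

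Of 15 interferon-gamma-induced genes outside class I, 3 were called lower and none higher, beside 7.28% and 6.71% of all tested genes. All 3 are immunity-related GTPases, which act on vacuoles of intracellular pathogens: Irgm1 (-0.28, adjusted p = 0.00762), Irgm2 (-0.28, adjusted p = 0.0222) and Iigp1 (-0.23, adjusted p = 0.0209, edgeR). Of these only Irgm1 was called without GalNAc-siRnf10 mouse 1 and none of the 15 without mouse 2 or mouse 3, and Iigp1 was not called without GalNAc-siNC mouse 3. The chemokines were not called, with Cxcl9 at 134 to 146 normalized read counts against 140 to 174 and Cxcl10 at 30.9 to 60.9 against 61.0 to 94.7. For Cxcl10 the log2 fold change was 0.54 (adjusted p = 0.216, edgeR). Over the whole list, 5 genes had log2 fold changes above 0 and 10 below.

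**Figure D5:**
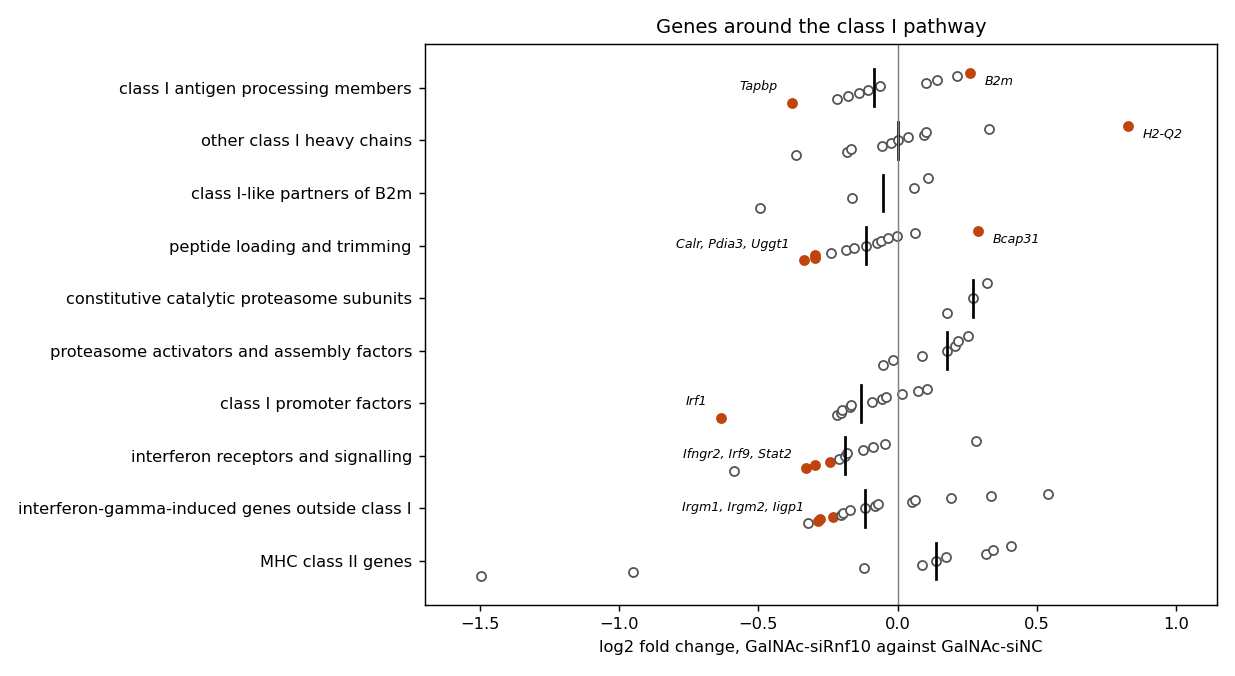
Log2 fold change (GalNAc-siRnf10 against GalNAc-siNC) of every tested gene of the class I set and of 9 pathway lists. Filled and named points have an adjusted p under 0.05 (edgeR), and black bars are list medians, from -0.19 for interferon receptors and signalling to 0.27 for the constitutive catalytic proteasome subunits.

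The RNA came from whole liver, in which fewer cells of a type and less RNA per cell cannot be told apart. Of 40 tested cell type markers 11 were called, a share of 27.5% beside the 14.0% of all genes. The samples carried liver markers, with 5 of 6 hepatocyte markers higher with GalNAc-siRnf10, among them Alb by 0.64 and Ttr by 0.66, with Cps1 (0.58), Pck1 (0.48) and Cyp2e1 (0.29) the other three. Their summed level lay between 1738970 and 1836170 normalized read counts in controls and between 2570970 and 2652850 with GalNAc-siRnf10. Lymphocyte marker counts were low in every liver. Of 13 T, NK and B cell markers 10 were too low to test, with at most 10 reads in any mouse, none of the other 3 was called, and the sum was 177 to 192 against 140 to 194. None of 10 Kupffer cell and macrophage markers was called by edgeR (1 at an unadjusted p under 0.05), DESeq2 or limma voom, with sums of 6994 to 8660 against 7834 to 8294. Cd5l of this list was called lower with the length and GC correction (-0.24, adjusted p = 0.00609, edgeR). It was also called lower with that correction and the replicate block, and without GalNAc-siNC mouse 1. Of 8 markers of other myeloid cells, 5 were tested and S100a9 fell (log2 fold change -1.43, the call lost in 5 of 15 alternatives), with sums of 122 to 170 against 72.3 to 91.8. Of 5 cholangiocyte markers Spp1 fell (-0.90), with sums of 2033 to 2073 against 1122 to 1154. Most of these sums was Spp1 itself, with means of 1836 and 982. Sox9 had a log2 fold change of -0.54 (adjusted p = 0.0555, edgeR). It was called lower in some alternatives, among them limma voom and the length and GC correction. Krt19, Krt7 and Epcam, at -0.20, -0.26 and -0.15, were not called. Of 6 sinusoidal endothelial markers Clec4g and Lyve1 rose, with sums of 1882 to 1927 against 2038 to 2116, while Stab2 of the same list had 696 to 721 against 582 to 615 (log2 fold change -0.26, adjusted p = 0.0544, edgeR) and was called lower in 4 alternatives. Lyve1 lost its call in 8 of 15 alternatives, among them DESeq2 and the replicate block. Of 5 stellate cell markers Reln and Colec11 rose and the other three had log2 fold changes of -0.20 to -0.27, with a list median of -0.20 and sums of 1160 to 1195 against 1286 to 1370. Colec11 lost its call in 6 of 15 alternatives, among them the length and GC correction, and neither gene was called without GalNAc-siRnf10 mouse 1. No marker of these lists was at 0 in all 6 livers. The part of these shifts in the results for B2m, Tapbp, Calr, Pdia3, Uggt1 and Irf1 was not tested.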

How the data were processed

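Total RNA of 6 mouse livers was made into poly(A) libraries with a stranded kit and sequenced as paired 150-base reads. Reads were aligned to GRCm38 with HISAT2. The counting tool, annotation release and strand setting are not given in the sources used here. The authors deposited raw read counts per gene with exon lengths, 1 column per mouse. Symbols were found for 55141 of 55487 gene IDs.

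Counts were tested with edgeR 4.0.16 in R 4.3.3 (filterByExpr, TMM, robust quasi-likelihood fit, treatment as the only term) with Benjamini-Hochberg adjustment over 14046 genes, and a gene was called at an adjusted p under 0.05. The study's own tool, DESeq2 (1.42.0 here), was an alternative, as were limma 3.58.1 voom with quality weights, other scalings and filters, the mouse number as a block, splines of 5 degrees of freedom for length and GC, and leaving out each mouse. Scripts were tested on simulated data. Single values and ratios had exact two-sided permutation tests. GC was taken from GENCODE transcripts of GRCm38. P-values set the difference between groups against the spread between mice, which edgeR estimates with information shared across genes.

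Named were Rnf10, all class I genes, and the called genes of the other lists, with uncalled genes given by value. The class I genes and lists were chosen with earlier results of these data known.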

Additional observations from a re-analysis of the deposited data

How the results depend on the processing

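With 3 mice/group, exact tests could not go below p = 0.1. Of 1965 genes called in all, 227 also changed by at least 1 on the log2 scale, and leaving out single mice gave 1053 to 2864 (1053, 1128 and 1128 without GalNAc-siRnf10 mouse 1, 2 or 3). The number of class I genes called was 1 with the GC and length correction and 1 with that correction and the replicate block, 3 with limma voom (H2-D1 added), and 1 to 5 with a mouse left out. The shares of all tested genes called were, in the same order, 17.9%, 16.8%, 16.6%, and 7.27% to 19.97%. The median of the class I genes was -0.14 to 0.0021 with a mouse left out. The Psmb8 to Psmb5 log2 ratio changed sign without GalNAc-siRnf10 mouse 2 (0.034, range -0.22 to 0.034). H2-K1 (-0.012, range with a mouse left out -0.012 to 0.17) and Psmb8 (-0.0014, range -0.0014 to 0.34) changed sign without GalNAc-siNC mouse 1, Psmb10 without GalNAc-siNC mouse 2 (0.0093, range -0.26 to 0.0093), and Tap2 with the GC and length correction (0.026, and 0.027 with the block as well). The same alternatives for called genes of the other lists were chosen after seeing the data. The cause of these changes was not tested. Rnf10 stayed between -1.13 and -1.27 in all 15 alternatives.

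Same-numbered mice did not deviate together (correlations 0.0006, 0.057 and -0.052), so the numbers do not pair the mice. With the replicate block 1816 genes (12.9% of those tested) and the same 2 class I genes, B2m and Tapbp, were called. The ratios had the same differences (H2-K1 to H2-D1 0.24).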
